A study of Mus musculus with 9 samples.

Results

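The 10 genes described here were picked by name as established targets of the hypoxia-inducible factors (HIF) with different jobs in the cell. Pgk1, Ldha and Aldoa are enzymes of glycolysis and lactate production. Pdk1 and Bnip3 act on mitochondria, and Egln3 and Ankrd37 were grouped under oxygen sensing. Adm, Car9 and Ddit4 act in vessel signalling, pH control and growth control. All 10 had a probe on the array, with 15 of 39429 probes between them, and all 10 were among the 23889 genes that could be tested. None of the 10 passed the test in any of the 3 comparisons of the study.

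HIF is a pair of proteins, an oxygen-sensitive alpha subunit such as Hif1a or Epas1 and the stable partner Arnt. Where oxygen is plentiful, prolyl hydroxylases of the Egln family mark the alpha subunit and Vhl directs its destruction. Where oxygen is short the alpha subunit persists, binds short DNA elements with Arnt and raises genes that shift the cell towards glycolysis, restrain mitochondria and call for new vessels. The retina is known for high oxygen use by its photoreceptors and for making lactate even with oxygen present, and HIF is a known driver of vascular endothelial growth factor (VEGF) in ischaemic eye disease.

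Retinas came from adult male C57BL/6 mice whose right eyes had been injected into the vitreous, and they were collected at day 7. One group received phosphate-buffered saline (PBS), which the submitters used as the negative control. The other groups received AAP or HAN, which the series title describes as peptides of high affinity that target VEGF. The labels give a dose of 1 µM and word it for PBS as well. The labels give no genetic change and no injury other than the injection. Each group had 12 mice, whose retinas were combined 4 to a pool, so each of the 3 arrays of a group read a pool. The p-values rest on the spread between pools within a group, estimated over all 3 groups together, and not on the spread between mice. Whole retina was measured, so fewer cells of a type and less RNA per cell cannot be told apart.

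A short DNA core, ACGTG or GCGTG, is the centre of the element that HIF binds, and it was searched on both strands of RefSeq promoter windows (build GRCm38.p6, 250 bases before to 50 after each start). CACGTG holds ACGTG on both strands and counted once on each. All 10 genes had the core in a window, against 46.7% of 27025 genes, and 12 of their 14 windows held it (85.7%), against 43.8% of 32851 windows. ACGTG was in 64.3% of the genes' windows and 19.6% of all windows, and GCGTG was in 50% and 32.4%. The windows of Ldha and Bnip3 were the richest, with 5 cores each before the start. A match is a description of letters and not a measured site, and no binding was measured here. The stretches below surround the core nearest to the start in 7 of the genes whose values are described in detail, 5′ to 3′ along the gene, with the cores in capitals.
Pgk1, chrX:106186949-106186993, plus strand, 131 bases before the start: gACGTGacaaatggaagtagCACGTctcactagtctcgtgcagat
Ldha, chr7:46845750-46845794, plus strand, 34 bases before the start: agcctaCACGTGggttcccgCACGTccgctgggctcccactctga
Pdk1, chr2:71873126-71873170, plus strand, 78 bases before the start: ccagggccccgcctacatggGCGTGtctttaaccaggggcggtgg
Bnip3, chr7:138909517-138909561, minus strand, 35 bases before the start: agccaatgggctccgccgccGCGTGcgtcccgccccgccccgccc
Egln3, chr12:54204079-54204123, minus strand, 229 bases before the start: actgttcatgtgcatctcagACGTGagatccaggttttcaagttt
Adm, chr7:110627583-110627627, plus strand, 54 bases before the start: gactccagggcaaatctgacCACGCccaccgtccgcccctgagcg
Car9, chr4:43506988-43507025, plus strand, 18 bases before the start: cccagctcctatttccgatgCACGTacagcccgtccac
Where a core reads CACGT or CACGC, the core lies on the other strand. Genes with 5 cores before the start (Ldha, Bnip3) and genes with 1 (Aldoa, Pdk1, Egln3, Car9) alike had no called change. At most 1 gene among all tested was called in any comparison, so this says nothing about the number of cores.

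The 9 arrays had 71.58% to 79.20% of spots well above background and no saturated spot. AAP 3 was the dimmest array, with 71.58% of spots well above background. Its 75th percentile of intensity was 1339.65, against 1930.26 to 2348.52 in the other arrays. AAP 3 was the highest array for Ldha, Aldoa, Ankrd37 and Ddit4 and the lowest for Pdk1, Egln3 and Car9. The part of array brightness in these values was not tested. Retinal identity was clear from rod photoreceptor markers, all 10 of which were well above background on every array. Pools of a group were unlike in transcripts of adjoining tissues, given here as the mean log2 difference from PBS over a marker list. For skeletal muscle it was 4.90 in AAP 1, 3.66 in AAP 3 and between -0.27 and 0.31 in the other arrays. Markers of cornea, iris and ciliary body stood at 1.66 in PBS 1 and 2.74 in AAP 1, and between -0.86 and -0.49 elsewhere. Lens markers stood at -2.25 in PBS 2, -1.37 in AAP 1 and -1.99 in AAP 3, and between 0.62 and 2.29 elsewhere. Arrays also shared slides: slide 1 held PBS 1 to 3 and AAP 1, slide 2 held AAP 2, AAP 3, HAN 1 and HAN 2, and slide 3 held HAN 3. PBS and HAN thus never met on a slide. With slide as a fixed block, the AAP pools are the only tie between HAN and PBS. These are AAP 1 on slide 1 and AAP 2 and AAP 3 on slide 2. HAN 3, alone on slide 3, adds nothing to such a value.

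Levels are given as relative log2 signal, the log2 of the probe's processed intensity less the log2 of that array's 75th percentile, so that 0 is the 75th percentile. Each probe has its own brightness, so levels are compared between arrays for a gene and not between genes. A gene passed where limma's adjusted p was under 0.05 over all 23889 genes tested. AAP and HAN were each set against PBS and then against one another, and the comparisons share groups, so they are not independent of one another.

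With AAP against PBS, 0 of the 10 genes passed, against 0.00419% of all genes (1 gene, higher). With HAN against PBS, 0 of 10 passed, again against 0.00419% of all genes (1 gene, higher). With AAP against HAN, 0 of 10 passed and 0% of all genes did. At an unadjusted p under 0.05 there were 1, 0 and 2 of the 10, against 6.78%, 9.66% and 8.54% of all genes. In the same order, the median log2 change over the 10 genes was 0.02, -0.00 and 0.01, and the medians over all genes were 0.00, 0.00 and 0.00. With slide as a block these medians of the 10 genes were -0.14, -0.07 and 0.08; the first equals the value within slide 1, where AAP 1 is the AAP array, and the last equals the value within slide 2.

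The intervals given here come from the fit without slide as a term. The 95% confidence interval of the change lay within 1.5-fold in either direction for 8 of 10 genes with AAP against PBS, 8 of 10 with HAN against PBS and 6 of 10 with AAP against HAN. Among all genes the shares with such an interval were 75.6%, 74.8% and 73.7%. The narrowest interval of the 10 was that of Bnip3, whose largest change inside the interval was 1.121-fold, 1.137-fold and 1.121-fold in the 3 comparisons. The intervals of Egln3 and Car9 were wide in all 3 comparisons, and those of Pdk1 and Adm passed 1.5-fold with AAP against HAN.

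**Figure D1:**
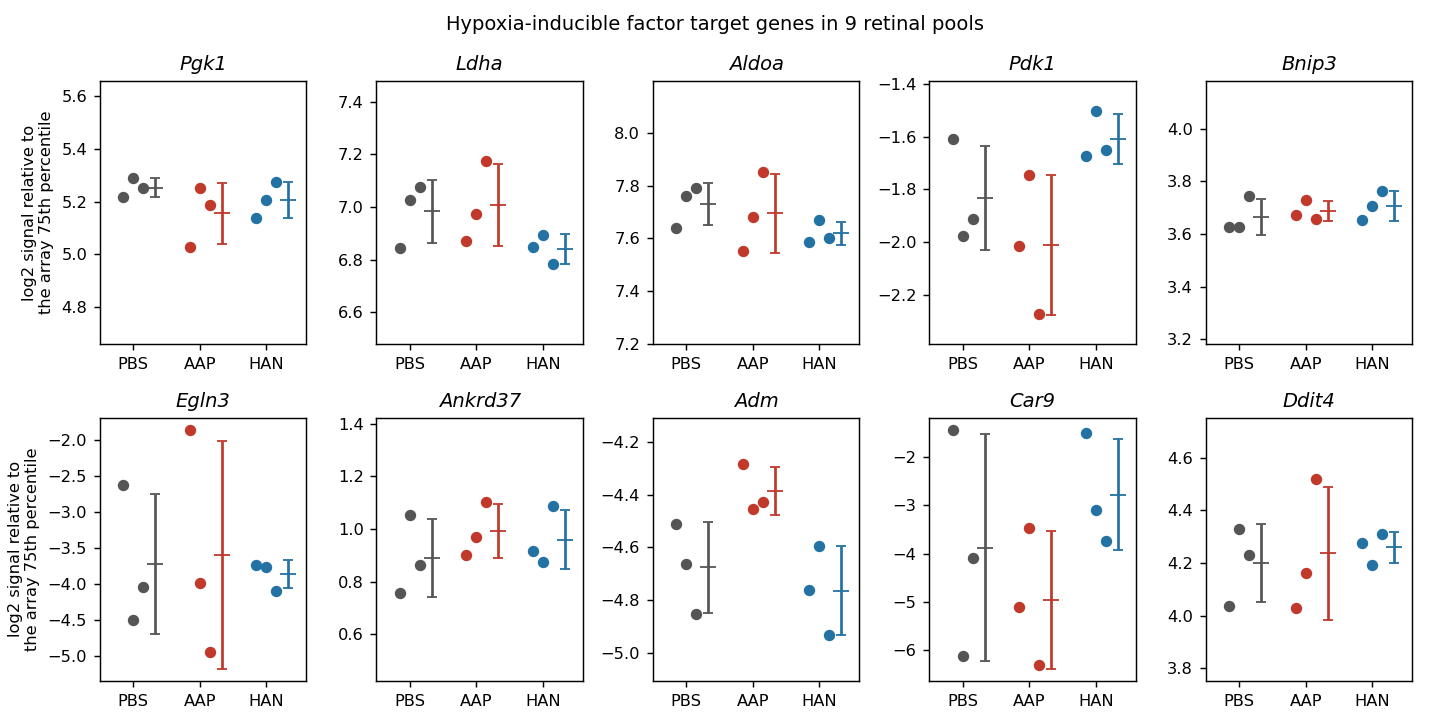
Relative log2 signal (vertical axis, log2 of intensity over the array's 75th percentile) of the 10 genes in each pool of PBS, AAP and HAN, with the mean and SD of 3 pools beside the points; panels have different vertical scales. Bnip3 spans 1.101-fold over the 9 pools, Car9 runs from -6.13 to -1.42 in the pools where it was well above background (all but AAP 3), and the AAP pools of Adm lie above all others.

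**Figure D2:**
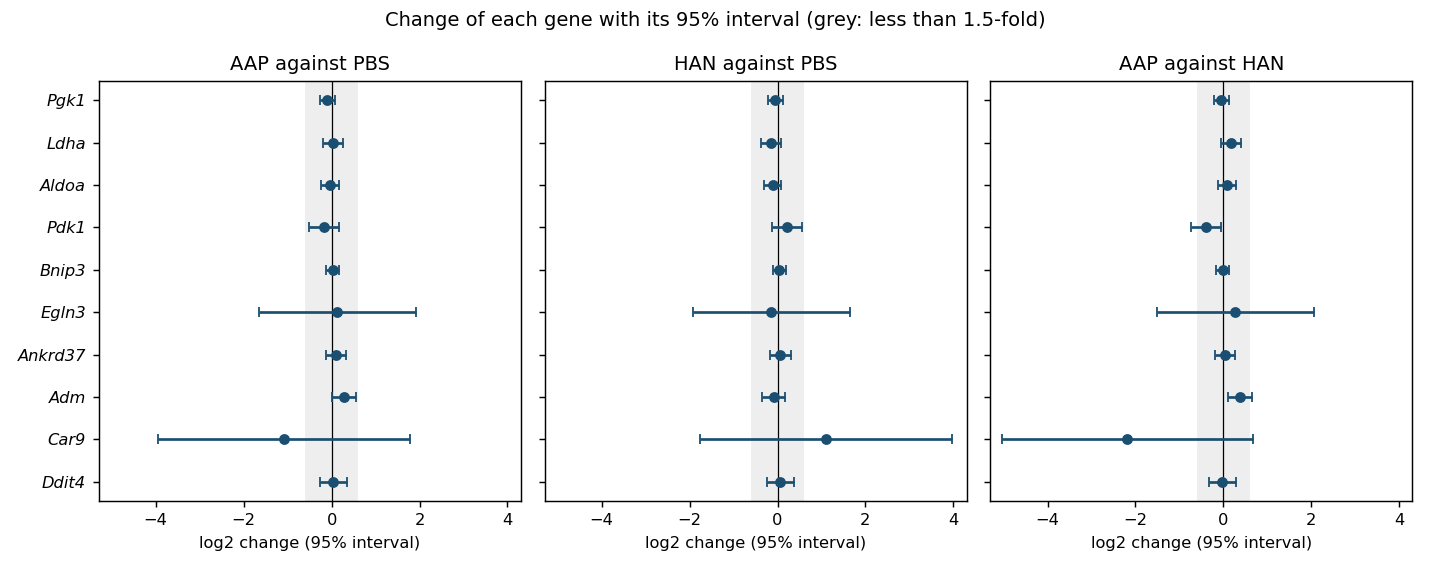
Log2 change of each gene (horizontal axis) with its 95% confidence interval from limma in the 3 comparisons, n = 3 pools a group; the grey band marks changes under 1.5-fold. The intervals of Egln3 and Car9 run far outside the band, and those of Pdk1 and Adm leave out 0 with AAP against HAN although neither gene passed after adjustment.

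None of the glycolytic genes passed. In the fit without slide, with the brightest kept probe of each gene, each of their intervals lay within 1.5-fold in all 3 comparisons. Blocking by slide gave -0.27 for Pgk1, -0.31 for Ldha and -0.32 for Aldoa with HAN against PBS. All 3 lay further below 0 than without the block, and the smallest limma adjusted p was 0.597. These HAN values rest on AAP 1, the only AAP pool on a slide with PBS, and leave out HAN 3. Pgk1 encodes phosphoglycerate kinase, which makes ATP in the lower part of glycolysis. Its relative log2 signal was 5.22, 5.29 and 5.25 in PBS 1 to 3, 5.03, 5.25 and 5.19 in AAP 1 to 3, and 5.14, 5.21 and 5.27 in HAN 1 to 3. The lowest value was AAP 1, and the groups overlapped. Its log2 change was -0.10 (SE 0.07, limma adjusted p = 0.828) with AAP against PBS and -0.05 (adjusted p = 0.874) with HAN against PBS. The interval for AAP allowed at most a 1.206-fold change. Within slide 1, where AAP 1 is the AAP array, the value was -0.23 for Pgk1, -0.11 for Ldha and -0.18 for Aldoa.

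Ldha encodes the lactate dehydrogenase subunit that favours turning pyruvate into lactate. It read 6.85, 7.03 and 7.08 in PBS, 6.87, 6.97 and 7.18 in AAP, and 6.85, 6.89 and 6.78 in HAN. HAN 3 was lowest and AAP 3 highest, and the groups overlapped in every comparison. limma's estimate of the log2 change was 0.02 (SE 0.10, adjusted p = 0.972) with AAP against PBS, -0.14 (adjusted p = 0.671) with HAN against PBS and 0.17 (adjusted p = 0.604) with AAP against HAN. The other Ldha probes gave -0.09 and -0.29 with HAN against PBS, the same sign in all 3 probes. The probe at -0.29 read 3.49, 3.46 and 3.35 in HAN, below its lowest PBS and AAP values of 3.53 and 3.55, with a limma adjusted p of 0.589 over probes.

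Aldoa encodes aldolase A, which splits fructose bisphosphate and is also the aldolase of skeletal muscle. It read 7.64, 7.76 and 7.79 in PBS, 7.55, 7.68 and 7.85 in AAP, and 7.59, 7.67 and 7.60 in HAN. Its log2 change was -0.04 (SE 0.09, adjusted p = 0.950) with AAP against PBS and -0.11 (adjusted p = 0.715) with HAN against PBS. Its lowest pool was AAP 1 and its highest AAP 3, and these are the 2 pools with skeletal muscle transcripts. Aldoa stood 0.18 below the PBS mean in AAP 1, where muscle markers were 4.90 above it. In AAP 3, where muscle markers were 3.66 above the PBS mean, Aldoa stood 0.12 above it. The part of muscle in the Aldoa values was not tested.

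Ldha and Aldoa were high and low in much the same pools as rod markers. The mean of the 10 rod markers was highest in AAP 3, at 0.26 above the PBS mean, where Ldha stood at 0.19 and Aldoa at 0.12. It was -0.16 in PBS 1, -0.14 in AAP 1 and -0.22 in HAN 3, where Ldha stood at -0.14, -0.11 and -0.20. The summed rod signal ran from 944.68 to 1122.7 times the 75th percentile in PBS, 969.13 to 1275.2 in AAP and 906.36 to 993.81 in HAN, so the HAN pools were low for rod markers as they were for Ldha. AAP 3 was also the dimmest array. The part of the rod share or of array brightness in the Ldha and Aldoa values was not tested.

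**Figure D3:**
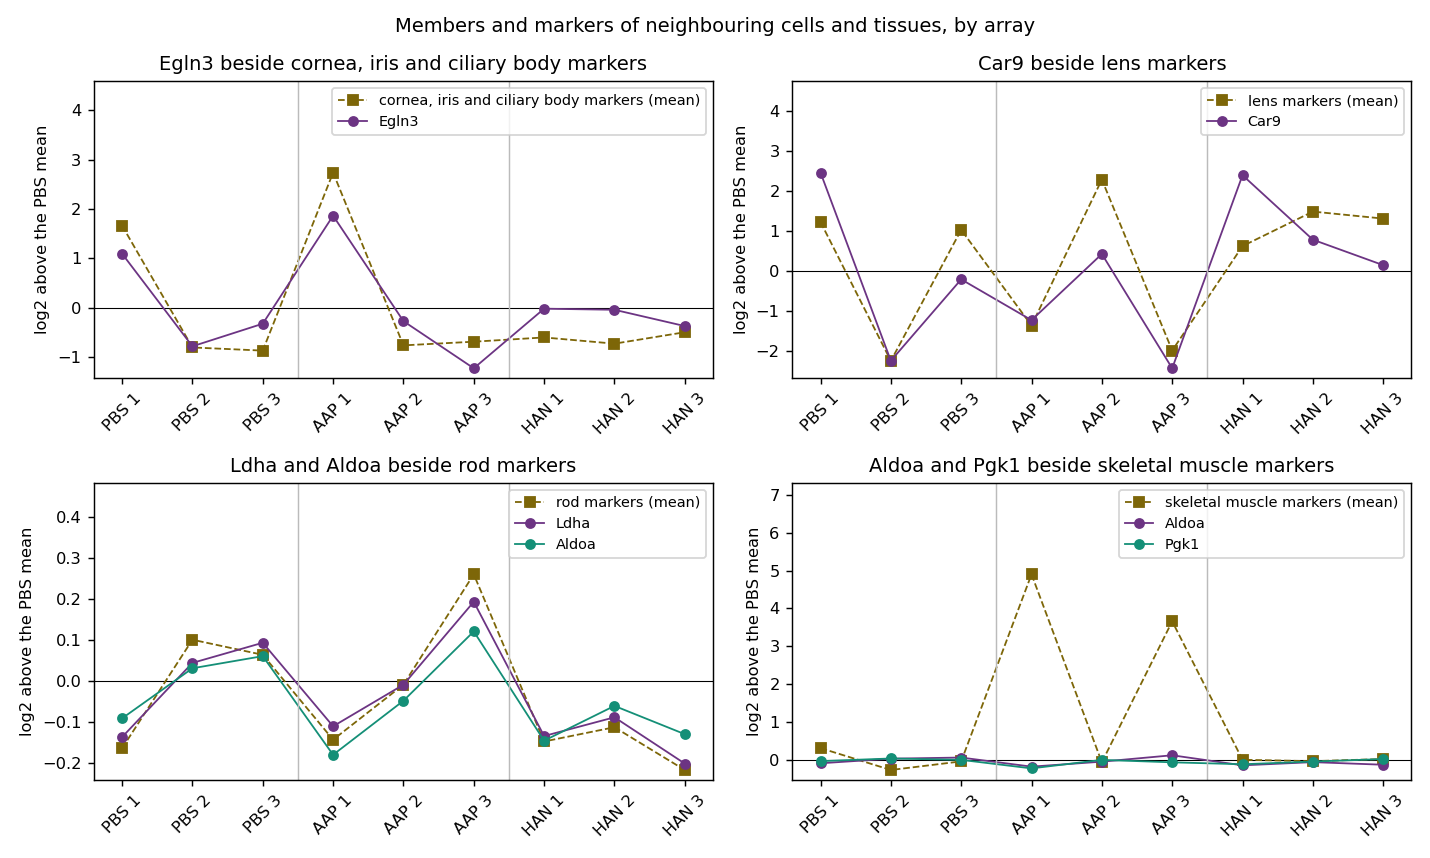
Log2 signal above the PBS mean (vertical axis) in each of the 9 pools for selected genes (circles) and the mean of a marker list (squares); panels have different vertical scales. Egln3 and the cornea, iris and ciliary body markers are both high in PBS 1 and AAP 1. Car9 and lens markers are both low in PBS 2, AAP 1 and AAP 3. Aldoa and Pgk1 lie between -0.23 and 0.12 in AAP 1 and AAP 3, where muscle markers stand at 4.90 and 3.66.

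The other genes of glycolysis and pyruvate use were also uncalled. None of 28 passed in any comparison, and 14 lay above and 14 below 0 with AAP against PBS. With HAN against PBS 10 were above and 18 below 0, with a median of -0.04 against 0.00 for all genes. Tpi1, the triose phosphate isomerase, read 5.06, 5.16 and 5.20 in PBS and 5.01, 4.99 and 5.01 in HAN, a change of -0.14 (limma adjusted p = 0.53). Pfkl, a phosphofructokinase subunit, read 1.72, 1.77 and 1.93 in PBS and 1.65, 1.61 and 1.60 in HAN, a change of -0.18 (adjusted p = 0.51). Blocked by slide, the values of Tpi1 and Pfkl were -0.23 and -0.28, which rest on AAP 1 and leave out HAN 3. Pdk4, a pyruvate dehydrogenase kinase, had the largest value of the list with AAP against PBS, at 1.18 (adjusted p = 0.75). It read -5.41, -6.18 and -6.14 in PBS and -3.20, -5.88 and -5.11 in AAP, and in AAP 2 the probe was not well above background. AAP 1 stood 2.71 above the PBS mean, AAP 2 0.03 and AAP 3 0.80, so the value came mostly from AAP 1. With slide as a block it was 2.71 (adjusted p = 0.0995), which is the value of AAP 1. AAP 1 and AAP 3 are the pools with muscle transcripts, whose part in the Pdk4 values was not tested.

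Pdk1 and Bnip3 restrain mitochondria in different ways, and they differed in how steady they were. Pdk1 encodes a kinase that shuts pyruvate out of the mitochondrion by inactivating pyruvate dehydrogenase. It read -1.61, -1.98 and -1.91 in PBS, -2.02, -1.74 and -2.27 in AAP, and -1.67, -1.50 and -1.65 in HAN. Every AAP pool lay below every HAN pool, and the PBS pools overlapped both. With AAP against HAN the log2 change was -0.40 (95% interval -0.75 to -0.06), and it did not pass after adjustment (limma adjusted p = 0.574). It was -0.18 (adjusted p = 0.841) with AAP against PBS and 0.22 (adjusted p = 0.661) with HAN against PBS. Of the 10 genes, 2 had groups that did not overlap with AAP against HAN, against 14.3% of all genes: 1 higher in AAP (Adm), against 7.52%, and 1 lower (Pdk1), against 6.82%.

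The low AAP values of Pdk1 came from certain pools. Its 3 lowest pools, AAP 3, AAP 1 and PBS 2, are the 3 with low lens markers. Among the other pools the orders differed. Lens markers were highest in AAP 2, at 2.29 above the PBS mean, where Pdk1 stood at 0.09. Pdk1 was highest in HAN 2, at 0.33, where lens markers stood at 1.48. In PBS 3 lens markers stood at 1.03 and Pdk1 at -0.08. With AAP 2 as the AAP pool the difference from HAN was -0.14, and within slide 2 it was -0.42. The summed lens signal ran from 138.69 to 1213.1 times the 75th percentile in PBS, 170.23 to 1904.4 in AAP and 958.91 to 1393.6 in HAN, and all 15 lens markers were well above background in every pool. The part of lens tissue in the Pdk1 values was not tested.

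The related kinase Pdk3 separated both peptide groups from PBS. It read 0.03, 0.19 and 0.17 in PBS, -0.16, -0.07 and -0.15 in AAP, and -0.09, -0.25 and -0.16 in HAN. The log2 change was -0.26 (limma adjusted p = 0.67) with AAP and -0.30 (adjusted p = 0.37) with HAN, neither of which passed. These differences share the PBS pools. Blocked by slide, they were -0.29 and -0.35.

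Bnip3 encodes a protein of the outer mitochondrial membrane that promotes the removal of mitochondria by autophagy. It read 3.63, 3.63 and 3.75 in PBS, 3.67, 3.73 and 3.66 in AAP, and 3.65, 3.71 and 3.76 in HAN. The pools of all 3 groups were intermingled. Its range over the 9 pools was 1.101-fold, and only 0.998% of genes tested had a smaller one, against a median range of 1.37-fold. Its change in log2 units was 0.02 (SE 0.06, adjusted p = 0.960) with AAP against PBS and 0.04 (adjusted p = 0.868) with HAN against PBS. Its 3 probes gave 0.07, 0.02 and -0.02 with AAP against PBS.

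Genes of mitophagy and autophagy did not pass either, 0 of 9 in each comparison. Their median change was -0.00 with AAP against PBS and -0.00 with HAN against PBS. Bnip3l, the closest relative of Bnip3 and itself a HIF target, read 2.92, 2.85 and 2.80 in PBS, 2.66, 2.81 and 2.47 in AAP, and 2.76, 3.10 and 2.99 in HAN. Its change was -0.21 (limma adjusted p = 0.75) with AAP against PBS and -0.30 (adjusted p = 0.57) with AAP against HAN.

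Egln3 and Ankrd37 were grouped under oxygen sensing. Egln3 encodes a prolyl hydroxylase that is induced by HIF and acts on HIF in turn. It read -2.62, -4.49 and -4.04 in PBS, -1.85, -3.99 and -4.94 in AAP, and -3.73, -3.76 and -4.09 in HAN. PBS 1 and AAP 1 were high, AAP 3 was lowest, and the range was 8.50-fold, wider than in 98.0% of genes. limma's estimate of the log2 change was 0.13 (95% interval -1.66 to 1.91, adjusted p = 0.984) with AAP against PBS and -0.14 (adjusted p = 0.968) with HAN against PBS. The second Egln3 probe, not well above background in AAP 3, had the same order of pools at its extremes, at -3.67 in PBS 1, -3.06 in AAP 1 and -6.11 in AAP 3.

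The 2 pools with high Egln3 are the 2 with high markers of cornea, iris and ciliary body. Krt5, a keratin of the corneal surface, stood at 2.98 above the PBS mean in PBS 1 and 5.59 in AAP 1, where Egln3 stood at 1.097 and 1.87. Of the 10 such markers on the array, at most 1 was not well above background in a pool. The summed signal of these 10 ran from 5.97 to 37.1 times the 75th percentile in PBS, 7.71 to 100.45 in AAP and 7.46 to 15.95 in HAN. Without PBS 1 and AAP 1, a choice made after seeing the data, the change in Egln3 was -0.20 with AAP and 0.41 with HAN against PBS. With slide as a block it was 1.87 with AAP, which is the value of AAP 1 within slide 1, and 2.58 with HAN. The HAN value also rests on AAP 1 and leaves out HAN 3. Leaving out AAP 1 gave -0.75 and leaving out AAP 3 gave 0.80 with AAP against PBS. The part of this tissue in the Egln3 values was not tested.

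Ankrd37, a small ankyrin repeat protein known as a direct HIF target, read 0.76, 1.05 and 0.86 in PBS, 0.90, 0.97 and 1.104 in AAP, and 0.92, 0.87 and 1.09 in HAN. PBS 1 was lowest, and the groups overlapped. The log2 change was 0.10 (SE 0.10, adjusted p = 0.861) with AAP against PBS and 0.07 (adjusted p = 0.865) with HAN against PBS. In this fit, without slide, the intervals allowed at most a 1.259-fold and a 1.231-fold change. Blocking by slide gave Ankrd37 values of 0.01 and -0.13 (adjusted p = 0.999 and 0.854), so the sign of the HAN value turned. Both blocked values rest on AAP 1, and the HAN value leaves out HAN 3.

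The machinery upstream of these genes was also without a called change, 0 of 17 HIF subunits and regulators in each comparison. Hif1a, the best known alpha subunit, read 2.08, 2.17 and 2.03 in PBS, 1.89, 2.01 and 1.83 in AAP, and 1.97, 2.15 and 2.17 in HAN. Every AAP pool lay below every PBS pool. The log2 change with AAP was -0.19 (limma adjusted p = 0.73). Arnt read 0.50, 0.52 and 0.44 in PBS and 0.60, 0.58 and 0.59 in HAN, a change of 0.10 (adjusted p = 0.68). Hif1an, the asparagine hydroxylase that blocks HIF's contact with its coactivators, was 0.38 higher in AAP than in HAN (adjusted p = 0.57), with AAP 3 at -1.16 against -1.68 and -1.71 in AAP 1 and AAP 2.

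Adm was the gene of the 10 with the smallest p in 2 of the 3 comparisons. It encodes adrenomedullin, a secreted peptide that widens vessels and acts on endothelial cells. It read -4.51, -4.66 and -4.85 in PBS, -4.28, -4.45 and -4.43 in AAP, and -4.76, -4.60 and -4.93 in HAN. All 3 AAP pools lay above all 3 PBS and all 3 HAN pools. On the log2 scale the change was 0.29 (95% interval 0.02 to 0.56) with AAP against PBS and 0.38 (0.11 to 0.65) with AAP against HAN. Neither passed after adjustment (limma adjusted p = 0.721 and 0.574). With HAN against PBS the Adm value was -0.09 (adjusted p = 0.845), and its sign was not stable: it was 0.61 with another background correction (normexp) and 0.15 with slide as a fixed block.

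Groups that do not overlap are common in these data. With AAP against PBS, 1 of the 10 genes had them, against 12% of all genes (6.43% higher and 5.53% lower). With HAN against PBS 0 of 10 had them, against 20.9% (10.4% higher and 10.4% lower). The count for Adm alone is thus near the background. The Adm probe was dim, with processed intensities of 62.3 to 105.6, though well above background in every pool. After normexp the change was 0.14 with AAP against PBS and -0.47 with AAP against HAN, so the sign of the second turned as well. This correction also shifted the median of all genes by -0.13 in that comparison and by 0.15 with HAN against PBS. Blocked by slide, the changes were 0.39 and 0.24, and the first is the value of AAP 1 alone.

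AAP 1, the highest pool for Adm, is a pool with muscle and corneal transcripts. In AAP 2 markers of muscle stood at -0.07, those of cornea, iris and ciliary body at -0.76 and those of lens at 2.29. Its Adm value was 0.22 above the PBS mean and 0.31 above the HAN mean. The part of these tissues in the Adm values was not tested. Of the proteins that make up adrenomedullin receptors, Ramp1, Ramp2 and Ramp3 were measured and none passed. Ramp1 read -2.55, -2.58 and -2.52 in PBS, -1.74, -2.23 and -1.81 in AAP, and -2.39, -2.65 and -2.68 in HAN. Its change was 0.62 (adjusted p = 0.63) with AAP against PBS and 0.64 (adjusted p = 0.57) with AAP against HAN, and the 2 higher AAP pools, AAP 1 and AAP 3, are those with muscle transcripts. The part of muscle in the Ramp1 values was not tested. For the Adm paralog Adm2 the change was -0.59 (adjusted p = 0.67) with AAP against PBS. It read -6.43, -6.44 and -6.81 in AAP, and in AAP 2 and AAP 3 the probe was not well above background.

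Car9 was the most variable of the 10. It encodes carbonic anhydrase IX, a surface enzyme that helps cells export acid and is a widely used marker of hypoxic tumour cells. It read -1.42, -6.13 and -4.09 in PBS, -5.12, -3.46 and -6.32 in AAP, and -1.49, -3.10 and -3.74 in HAN. PBS 1 and HAN 1 were high, PBS 2 and AAP 3 were low, and in AAP 3 the probe was not well above background. Among the 8 pools where it was well above background the level ran from -6.13 in PBS 2 to -1.42 in PBS 1. Its change in log2 units was -1.08 (95% interval -3.94 to 1.78, adjusted p = 0.874) with AAP against PBS, 1.11 (-1.75 to 3.97, adjusted p = 0.811) with HAN against PBS and -2.19 (-5.05 to 0.67, adjusted p = 0.598) with AAP against HAN.

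Single pools set these Car9 values. Without PBS 2 the change with HAN against PBS was -0.02, and without PBS 1 it was 2.34. With AAP against PBS it was -2.21 without PBS 2, 0.15 without PBS 1 and 0.42 with AAP 2 as the AAP pool. The 3 lowest Car9 pools, PBS 2, AAP 1 and AAP 3, are the 3 with low lens markers. Among the other 6 pools the orders differed: lens markers were highest in AAP 2, at 2.29 above the PBS mean, where Car9 stood at 0.42, and Car9 was highest in PBS 1, at 2.46, where lens markers stood at 1.22. The part of lens tissue in the Car9 values was not tested.

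Car12, another surface carbonic anhydrase and HIF target, had 1 pool apart from the rest. It read 0.37, 0.21 and 0.15 in PBS, 1.84, 0.17 and 0.06 in AAP, and 0.04, 0.09 and -0.31 in HAN. The change with AAP against PBS was 0.45 (limma adjusted p = 0.86). With slide as a block it was 1.59 (adjusted p = 0.0163), a call that rests on AAP 1, the only AAP pool on a slide with PBS.

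Ddit4 encodes REDD1, which slows growth by restraining the kinase complex mTORC1 and answers to hypoxia, stress and glucocorticoids. It read 4.04, 4.33 and 4.23 in PBS, 4.03, 4.16 and 4.52 in AAP, and 4.27, 4.19 and 4.31 in HAN. PBS 1 and AAP 1 were lowest, AAP 3 was highest, and the groups overlapped. The log2 change was 0.04 (SE 0.13, adjusted p = 0.964) with AAP against PBS and 0.06 (adjusted p = 0.913) with HAN against PBS. Blocked by slide, these were -0.17 and -0.28, so the sign turned in both. Both blocked values rest on AAP 1, the only AAP pool on a slide with PBS.

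None of 9 regulators of mTORC1 passed, and their median changes were 0.05 with AAP and -0.08 with HAN against PBS. Tsc1, which brakes mTORC1 together with Tsc2, read 0.80, 0.97 and 0.99 in PBS and 1.08, 1.03 and 1.32 in AAP, a change of 0.22 (limma adjusted p = 0.72). Rps6kb1, a kinase that mTORC1 activates, read 3.06, 3.23 and 3.13 in PBS and 3.31, 3.33 and 3.28 in AAP, a change of 0.17 (adjusted p = 0.73). Both were higher in all 3 AAP pools than in any PBS pool, 2 of 9 against 6.43% of all genes. Sesn1, another gene of this list, was lower in all 3 AAP pools, 1 of 9 against 5.53%. Its change was -0.14 (adjusted p = 0.77).

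Other HIF targets, 32 of 36 of which were measured, were likewise uncalled in all 3 comparisons. Their median change was -0.02 with AAP against PBS, 0.04 with HAN against PBS and -0.06 with AAP against HAN. Tfrc, the transferrin receptor that brings iron into cells, had the smallest adjusted p of the list in the first and second comparisons. It read -0.04, -0.21 and -0.20 in PBS, 0.15, 0.23 and 0.26 in AAP, and 0.23, 0.38 and 0.23 in HAN. All 6 peptide pools lay above all 3 PBS pools. Its log2 change was 0.36 (limma adjusted p = 0.63) with AAP and 0.43 (adjusted p = 0.36) with HAN, which share the PBS pools. With slide as a block it was 0.30 and 0.36. The first is the value of AAP 1 alone, and the second also rests on AAP 1 and leaves out HAN 3.

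Matrix and secreted genes of that list did not pass either. Plod2, which modifies collagen, read -1.70, -2.21 and -2.28 in PBS, -2.25, -1.75 and -2.25 in AAP, and -1.79, -1.55 and -1.53 in HAN, a change of 0.44 (adjusted p = 0.52) with HAN against PBS. Blocked by slide, the Plod2 value was 0.15. Edn1, the vasoconstrictor endothelin 1, was lower in each AAP pool (-4.57, -4.62 and -4.75) than in any HAN pool (-4.32, -4.17 and -4.44), a change of -0.33 (adjusted p = 0.57).

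Of 16 paralogs of the 10 genes, none passed in any comparison. Their median change was 0.03 with AAP and 0.02 with HAN against PBS, and 0.04 between the peptides. Car2, a cytosolic carbonic anhydrase of Müller glia, read 3.94, 4.05 and 3.86 in PBS and 3.76, 3.70 and 3.48 in AAP, a change of -0.30 (limma adjusted p = 0.74). Markers of Müller glia and astrocytes were lowest in AAP 3, at -0.48 against the PBS mean, which was also the lowest pool for Car2, at -0.47. Other pools did not follow this order. In HAN 1 Car2 stood at -0.45 and the markers at -0.02. In AAP 1 and AAP 2 Car2 stood at -0.19 and -0.25 and the markers at -0.29 and -0.10. The part of these cells in the Car2 values was not tested.

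**Figure D4:**
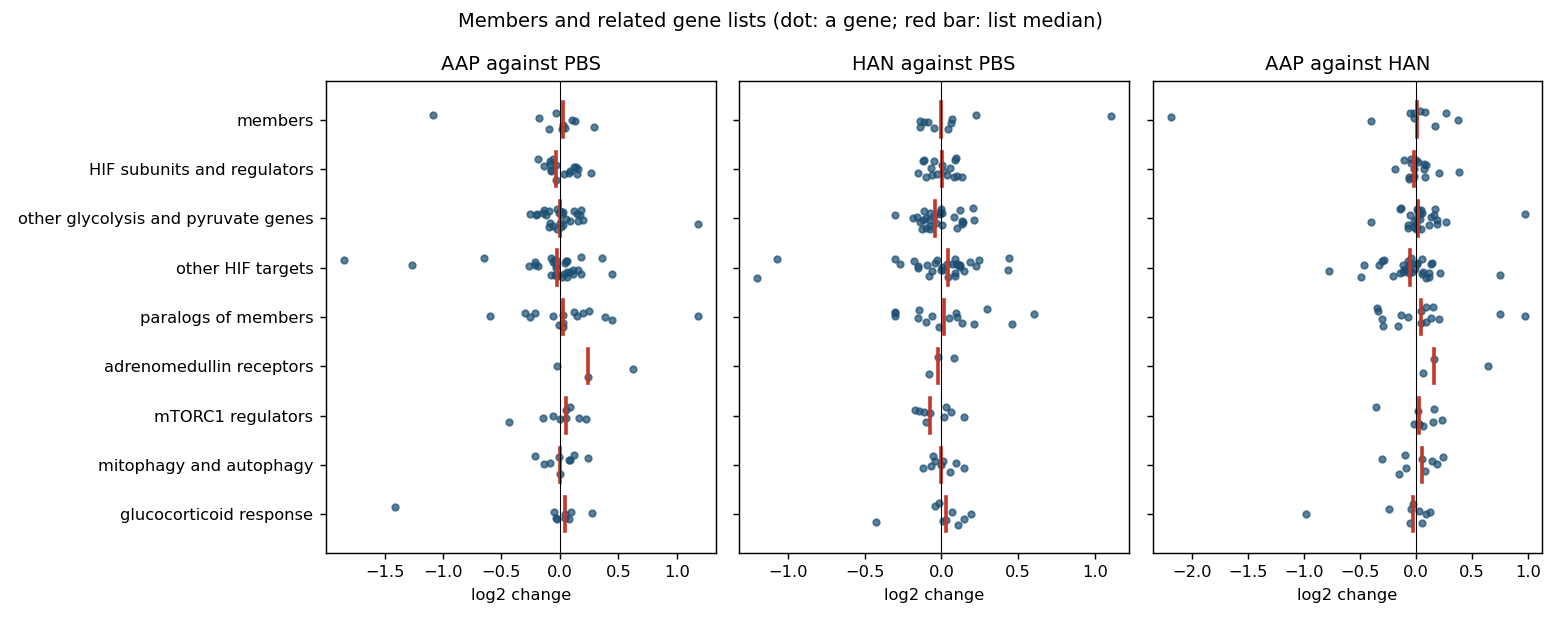
Log2 change (horizontal axis; each panel has its own range) of every measured gene in the 10 HIF targets, labelled members, and in 8 related lists, for the 3 comparisons; a dot is a gene and a red bar the median of the list. The list medians lie near 0, except the 3 adrenomedullin receptor genes at 0.24 with AAP against PBS and 0.16 with AAP against HAN, and single genes such as Car9 (-2.19 with AAP against HAN) lie far out.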

How the data were processed

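Per the file headers, the authors quantified spot intensity with Agilent Feature Extraction 11.0.1.1 (protocol GE1_1100_Jul11, design annotated on mm9) from 1 dye, Cy3. The deposited processed signal is a background-subtracted linear intensity, not normalised between arrays. The authors' value table holds the same intensity: 99.73% to 99.81% of its values equalled the probe mean within 1e-04, with column medians of 164.67 (AAP 3) to 298.3 (PBS 1), so its scale and direction are known.

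Control spots and outlier spots (103 to 160 an array) were left out, log2 values were scaled to the array's 75th percentile (1339.65 in AAP 3 to 2348.52 in PBS 1), and spots of a probe were averaged. Probes well above background on every array of at least 1 group were kept; the brightest kept probe stood for its gene. Names came from RefSeq GRCm38.p6 by unversioned accession (26055 probes, 19751 symbols). A single limma 3.58.1 model (R 4.3.3; 6 residual, 1.85 prior degrees of freedom) covered 9 arrays, two-sided, with Benjamini-Hochberg adjustment; the script was tested on simulated data. The number of arrays limits the precision. The labels do not say which mice a replicate number marks, and replicate numbers were not treated as pairs. The 10 genes, the related lists and the tests were chosen with earlier results of these data known. From each related list the rule named genes past the threshold and up to 3 with the smallest p in a comparison; Pdk4 and Car12 were named outside it, after their values were seen. Alternatives were 25 other settings, including normexp (on the median signals), quantile and median scaling, slide blocks and left-out arrays. Some genes that this rule names are not reported here.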

Additional observations from a re-analysis of the deposited data

How the results depend on the processing

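None of the 10 genes passed in any comparison under any of the 25 alternatives run, and limma's lowest adjusted p over them was 0.239 (Pdk1, HAN against PBS). The number of genes past the threshold among all genes was fragile. With AAP against PBS (1 gene) it was 46 with slide as a fixed block. It was 0 with normexp, quantile or median scaling, no filter on dim probes, the replicate block, only the 2 groups compared, or without AAP 1 and AAP 3, and also without PBS 1 and AAP 1 or without PBS 2, AAP 1 and AAP 3, the latter omissions being chosen after seeing the data. Leaving out an array gave 0 to 12 genes, 12 without AAP 2. With HAN against PBS (1 gene) it was 0 with normexp, the replicate block and both added omissions, 2 with slide as a fixed block, 3 with array weights and 1 to 3 with an array left out. With AAP against HAN (0 genes) leaving out an array gave 0 to 13, 13 without AAP 2. The cause was not tested.

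The median over the 10 genes with AAP against PBS (0.02) was -0.0557 with quantile scaling, -0.139 with slide as a fixed block and within slide 1, and -0.0540 to 0.0321 with an array left out. With HAN against PBS it was 0.0687 with normexp. With AAP against HAN (0.01) it was -0.0666 with quantile scaling and 0.0776 with slide as a fixed block and within slide 2. Fits limited to fewer arrays assume that a lone pool varies like the others. Same-numbered arrays did not deviate together (correlations from -0.28 to 0.40), so the replicate numbers were taken not to pair the samples, and the replicate block called none of the 10 genes. Signal over background limits Adm, Egln3 and Car9, whose probes were dim. The list of related genes left out 5 that were not well above background in all arrays of a group.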

Other observations

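Ddit4 also answers to glucocorticoids, and 9 glucocorticoid-responsive genes were read beside it. None passed in any comparison, and their median changes were 0.04 with AAP against PBS, 0.03 with HAN against PBS and -0.03 with AAP against HAN. Per1, a clock gene that steroids induce, read 1.86, 1.99 and 1.95 in PBS, 2.16, 1.99 and 2.47 in AAP, and 2.06, 2.12 and 2.06 in HAN. Its log2 change was 0.28 (limma adjusted p = 0.73) with AAP and 0.15 (adjusted p = 0.72) with HAN against PBS. Cebpd, a transcription factor of the acute phase, was lower in all 6 peptide pools than in PBS. It read 2.99, 2.86 and 2.88 in PBS, 2.26, 1.59 and 0.66 in AAP, and 2.85, 1.87 and 2.74 in HAN, with changes of -1.41 (adjusted p = 0.67) and -0.43 (adjusted p = 0.77). The Cebpd values blocked by slide were -0.65 and 0.58, so the sign of the HAN value turned. Both blocked values rest on AAP 1, the only AAP pool on a slide with PBS. Tsc22d3, a gene strongly induced by glucocorticoids, changed by 0.09 and 0.07.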
